A study of Mus musculus with 16 samples.

Results

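The genes described here encode the m6A reader proteins of the mouse other than YTHDC2 itself: Ythdc1, Ythdf1, Ythdf2 and Ythdf3 of the YTH family, and Igf2bp1, Igf2bp2 and Igf2bp3 of the IGF2BP family. They were found by matching the Ensembl identifiers of the 4 deposited expression tables, with the version left out, to these 7 symbols. All 7 were found among the 55414 gene rows of each table, and all 7 passed the filter on low values in every comparison. The question put to the data was whether other m6A readers change in abundance when Ythdc2 is lost.

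The study sequenced testis RNA from mice at postnatal day 14 (P14) and 16 (P16). The cKO group is labelled Ythdc2 conditional knockout (3 libraries at each stage), and it was compared with mice labelled control (2 libraries at each stage) and with mice labelled Cre control (4 libraries at P16 and 2 at P14). Per the labels' protocols, mice of all 3 groups were given tamoxifen at 10 mg/ml on P12 and P13, so P14 and P16 follow the start of treatment closely. The labels do not name the Cre driver or the alleles of either control type. The deposited column names of the control libraries start with WT, and those of the Cre controls with Ctrl. The labels do not say whether a library is 1 mouse, so p-values measure the spread between libraries. Ribosomal RNA was removed with the Ribo-Zero components of a TruSeq kit (the first kit) from the controls and cKO libraries 1 and 2 of each stage. The Cre controls and cKO library 3 of each stage went through an NEBNext kit for the same purpose (the second kit). By the flow cells in the column names, first-kit libraries were in sequencing run 1 and second-kit libraries in runs 2 and 3. Differences between the kits therefore cannot be told apart from differences between runs. All control libraries were first-kit and all Cre controls second-kit. A cKO effect that differs between the kits therefore cannot be told apart from one that differs between control types. Cre control libraries 2, 3 and 4 of P16 were in run 3 and the other second-kit libraries in run 2. At P16, only Cre control library 1 shared the run of cKO library 3. In bulk tissue, fewer cells of a type and less RNA per cell cannot be told apart.

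m6A, the methylation of adenosine at its N6 position, is the most common internal modification of mRNA, and reader proteins bind it and influence the fate of the marked transcript. YTHDC1 acts in the nucleus, in splicing, polyadenylation site choice and export. The YTHDF proteins act in the cytoplasm: YTHDF2 recruits the CCR4-NOT deadenylase and so speeds decay, YTHDF1 has been tied to translation, and YTHDF3 to both. The IGF2BP proteins bind RNA through KH domains, are high in embryonic tissue and in many tumours, and are known for stabilising their target mRNAs. YTHDC2 differs from the other YTH proteins in carrying a helicase domain, and it works with MEIOC in germ cells entering and passing through meiosis.

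The libraries held 14494867 to 27531529 reads on genes. Ythdc2 itself was measured first, as the check of the labels. Its CPM, the reads of a gene scaled to library size, lay between 70.1 and 130 in the 10 libraries of the control and Cre control groups and between 11.6 and 32.1 in the 6 cKO libraries, with no overlap. Markers of spermatogonia, spermatocytes, Sertoli, Leydig and peritubular cells, macrophages and endothelium were detected in every group. Of the listed markers, Insl3 of mature Leydig cells was at 0 in every library of some groups.

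At P16, Igf2bp3 was the reader with the largest change. In the table of controls and cKO libraries, its deposited values, which are the gene's reads scaled by each library's size factor, were 829 and 784 in the 2 controls. They were 1293 and 1405 in cKO libraries 1 and 2. Both cKO libraries lay above both controls, by more than the gap within either group. The change was 0.74 on the log2 scale (SE 0.064), or 1.67-fold, with an adjusted p of 3.68e-06 in limma (Benjamini-Hochberg adjustment over all genes tested, which holds for every adjusted p given here). A larger absolute change was seen in 7.32% of the 17986 genes tested. A gene is called here if its adjusted p is under 0.05.

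In the same comparison 5 of the 7 readers were called, 2 higher and 3 lower. The background was high: 38.6% of all genes tested were called, 18.6% higher and 19.9% lower. By position alone, 2 readers had both cKO libraries above both controls, against 34.2% of all genes, and 4 had both below, against 35.4%. The median log2 change of the 7 readers was -0.09, beside -0.00 over all genes tested. Apart from Igf2bp3, the changes were small: at least 53.3% of all genes tested had a larger absolute change than each of the other 6 readers. With eBayes without a trend in the spread, Igf2bp3 was the only reader called. The CPM plot shows the readers in every library of both kits. In both kits, the P16 cKO libraries lay outside the other libraries of that kit for Igf2bp3 and Ythdf3 (higher) and Ythdc1 (lower). The share of all genes that did so in both kits was not counted, so this is not known to be particular to these readers.

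**Figure D1:**
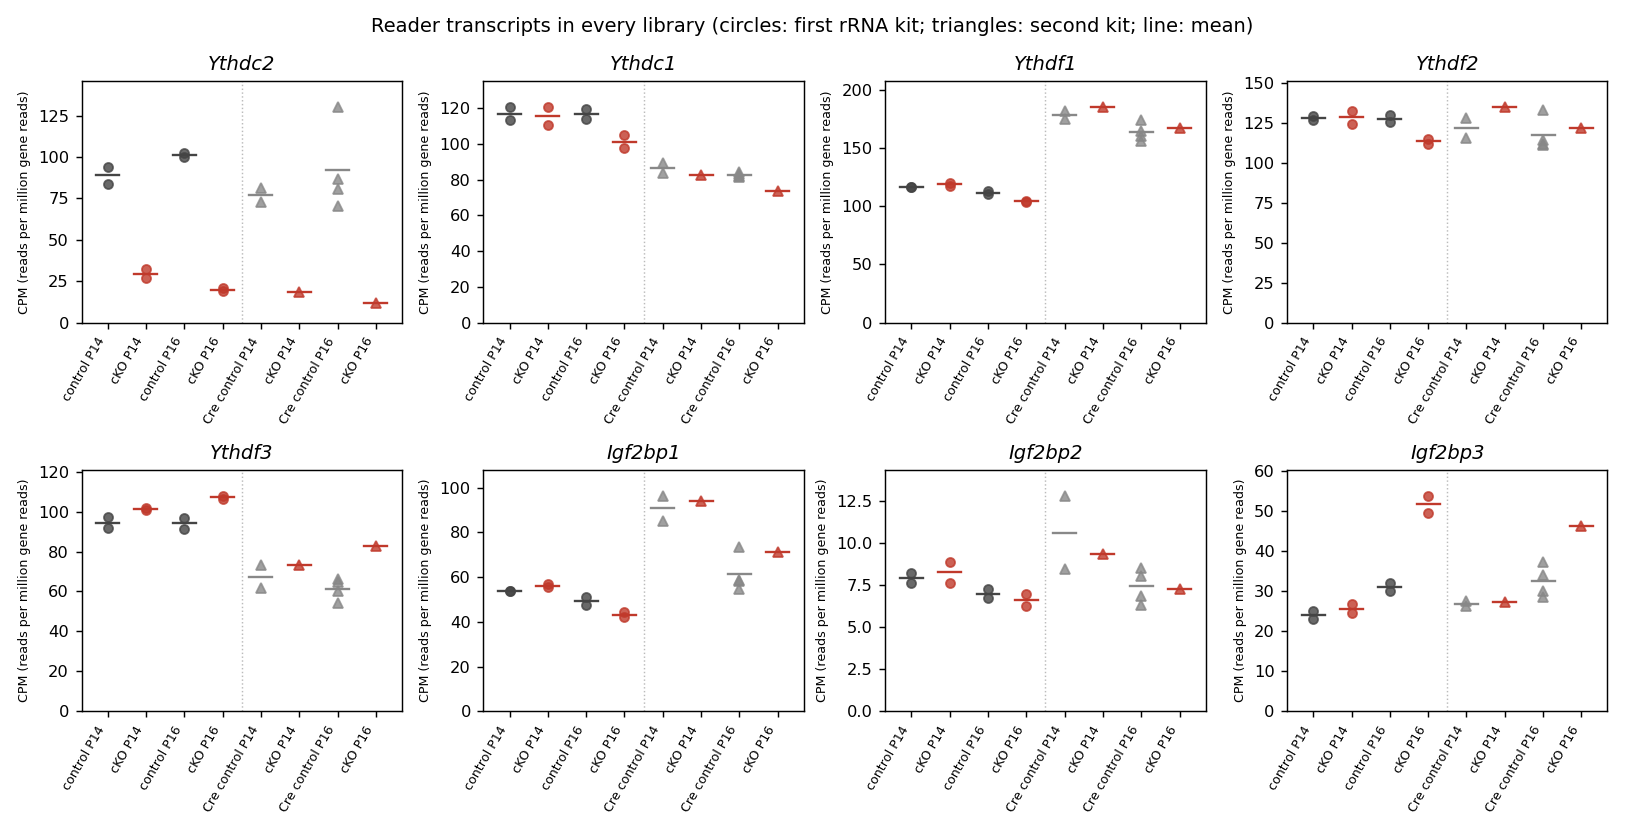
CPM (linear axis from 0) of Ythdc2 and the 7 readers in all 16 libraries, by group, with circles for the first rRNA kit, triangles for the second and a line at each mean. Igf2bp3 stood at 49.5 and 53.9 CPM in the P16 cKO libraries of the first kit and at 46.3 in that of the second, above every other library.

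Ythdc1, the nuclear reader, fell slightly at P16. Its values were 3108 and 2962 in the controls and 2737 and 2541 in cKO libraries 1 and 2. Both cKO libraries were below both controls. The change was -0.20 (SE 0.051, adjusted p = 0.00758 in limma). In the P16 table with Cre controls, the 4 Cre control libraries stood close together at 1664, 1626, 1649 and 1638, and cKO library 3, made with the same kit, was below all of them at 1439. There, 30.0% of all genes tested had library 3 below all 4 Cre controls. With the kit as a term in the fit, which leaves the contrast to rest on library 3, the change was -0.19 (SE 0.090) and was not called (adjusted p = 0.289 in limma). Without control P16 library 1 the change against control was -0.17, with an adjusted p of 0.107 in limma.

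Ythdf1 was not called in any comparison of cKO with controls. In the P16 table of controls its values were 2931 and 2871 in the controls and 2703 and 2736 in the cKO libraries, lower in both but by a small step. The change was -0.09, with a 95% confidence interval from -0.19 to 0.00 (adjusted p = 0.124 in limma). Against the Cre controls it was 0.00, with an interval from -0.20 to 0.20, and cKO library 3 at 3268 lay within the Cre control range of 3161 to 3439.9.

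Ythdf2, the decay-promoting reader, was lower at P16 against control. The controls held 3366 and 3257, and cKO libraries 1 and 2 held 2999.6 and 2919.6, so the groups did not overlap. The change was -0.16 (SE 0.045, adjusted p = 0.0134 in limma). Cre controls held 2631, 2218, 2302 and 2188, and cKO library 3 lay inside that range at 2369. It was below Cre control library 1, the only one of its own sequencing run, and above the other 3. The change there was 0.03, with an interval from -0.23 to 0.28 (adjusted p = 0.927 in limma). The difference between the kits was 0.20 (SE 0.13, adjusted p = 0.645 in limma); by this test 0 readers, and 0.0259% of all genes, were called. Leaving out control P16 library 1 or library 2 ended the call against control, with changes of -0.14 and -0.19 and adjusted p of 0.158 and 0.0590 in limma.

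Ythdf3 was the YTHDF gene called higher at P16. Its values were 2518 and 2375 in the controls and 2822 and 2768 in cKO libraries 1 and 2, above both controls. The change was 0.19 (SE 0.049, adjusted p = 0.00739 in limma), or 1.14-fold. In the second kit, the 4 Cre controls stood at 1315, 1197, 1093 and 1274, and cKO library 3 stood above all of them at 1611. Library 3 was above all 4 Cre controls in 24.0% of all genes tested. The kit-adjusted change against Cre control was 0.40 (SE 0.12), with an unadjusted p of 0.00665 and an adjusted p of 0.144 in limma, so it was not called. Without control P16 library 2 the change against control was 0.15, with an adjusted p of 0.125 in limma.

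Among the YTHDF transcripts, Ythdf3 therefore took a larger part of the family at P16. Taken per exon length, it made up 21.9% and 22.5% of the YTHDF total in the 2 first-kit controls and 26.1% and 26.3% in cKO libraries 1 and 2. In the second kit it made up 12.3% to 13.98% in the 4 Cre controls and 16.6% in cKO library 3. The summed CPM of the family, by contrast, was 327 to 339.5 in the first-kit controls and 323 to 326 in the cKO libraries. These shares were not tested, and they hold the same reads as the single-gene values above.

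**Figure D2:**
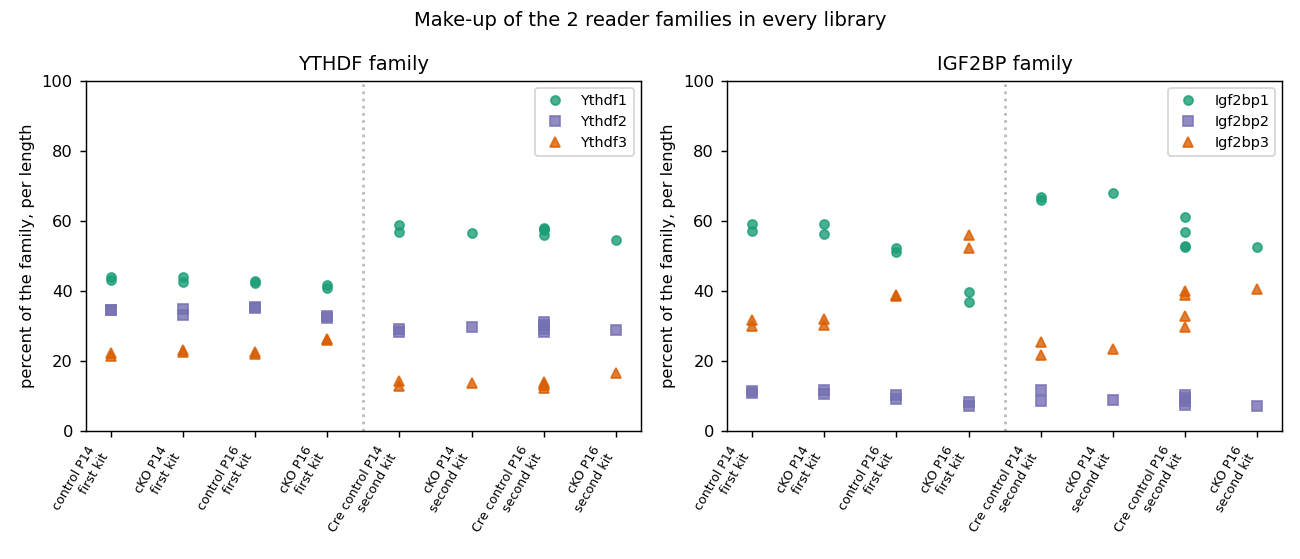
Percent of the YTHDF total (left) and of the IGF2BP total (right) taken by each gene, after division by exon length, with 1 point for each library and the groups ordered by kit. Igf2bp3 took 52.3% and 56.0% of the IGF2BP total in the first-kit P16 cKO libraries, above Igf2bp1, and 40.5% in the second-kit P16 cKO library, below it.

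The IGF2BP genes are shown with sequence because they are known targets of the let-7 miRNA family. Bases 2 to 8 of let-7 form the seed, GAGGUAG. The letters of an mRNA that pair with all of these bases are CTACCTC. The first line below gives the mature let-7a sequence from RefSeq, and the others give 22 bases of the 3′ UTR, with the seed or its match in capitals, 5′ to 3′. For each gene, the 3′ UTR is that of the transcript with the longest coding sequence in GENCODE M21 (GRCm38). It need not be the longest 3′ UTR of the gene.
let-7a-5p: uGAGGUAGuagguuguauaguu
Igf2bp1, first match: ctgtgcgaagtaaaCTACCTCa
Igf2bp1, second match: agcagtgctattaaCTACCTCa
Igf2bp2: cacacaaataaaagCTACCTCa
Igf2bp3: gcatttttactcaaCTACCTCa

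Searched on the sense strand, CTACCTC occurred 4 times in the 3′ UTR of Igf2bp1, 1 time in that of Igf2bp2 and 1 time in that of Igf2bp3. It occurred 0 times in those of Ythdc1, Ythdf1, Ythdf2 and Ythdf3. The letters were found in 7.98% of 21039 genes with a 3′ UTR, and in 34.0%, 12.01% and 13.1% of genes with a 3′ UTR of like length to Igf2bp1, Igf2bp2 and Igf2bp3. In RefSeq, 11 mature mouse miRNAs carry the seed. miRNAs were not measured here, and the match was not tied to any change.

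Igf2bp1 was lower at P16 against control but not against Cre control. First-kit controls held 1323 and 1234, while the cKO libraries held 1162 and 1097, a small step with no overlap. The change was -0.18 (SE 0.061, adjusted p = 0.0340 in limma). The second kit gave values of 1084, 1163, 1180.0 and 1449.0 in the Cre controls and 1391 in cKO library 3, inside that range only through Cre control library 4. The kit-adjusted change was 0.20 (SE 0.15, adjusted p = 0.504 in limma). The difference between the kits, which is also one between control types, was 0.39 (SE 0.19) and was not called. The sign of the change turned between them. The call against control was also lost without control P16 library 1 (-0.13), control P16 library 2 (-0.23) or cKO P16 library 2 (-0.14), with adjusted p of 0.285, 0.0539 and 0.0984 in limma. It was lost with DESeq2 as well, at an adjusted p of 0.132.

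Igf2bp2, the least abundant reader, was not called in any comparison. In the P16 controls it stood at 175 and 188, and in cKO libraries 1 and 2 at 181 and 164, so the groups overlapped. The change was -0.07, with an interval from -0.34 to 0.19 (adjusted p = 0.677 in limma). In the second kit cKO library 3 at 142 lay within the 4 Cre controls, at 136, 159.6, 128 and 168.

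Igf2bp3 was also higher in the second kit. The Cre controls at P16 stood at 672, 565, 752 and 595, and cKO library 3 stood above all 4 of them at 903. Of all genes tested, 24.0% had library 3 above all 4 Cre controls. The kit-adjusted change was 0.49 (SE 0.16), or 1.40-fold, with an unadjusted p of 0.0126. The adjusted p was 0.168 in limma, so it was not called. That comparison called 1 gene of 19200, Ythdc2, or 0.00521% of genes, while 3604 genes had an unadjusted p under 0.05. A larger absolute change than that of Igf2bp3 was seen there in 20.6% of the genes tested. The Igf2bp3 values of cKO libraries 1 and 2 in the same table were 1059 and 1159, but these libraries were made with the other kit.

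When the 9 libraries of P16 were fitted jointly, with a term for the kit, 3 of the 7 readers were called, 2 higher and 1 lower. Of all genes tested 14.2% were called, 6.36% higher and 7.8% lower. Igf2bp3 rose by 0.64 on the log2 scale (SE 0.10, adjusted p = 0.00462 in limma). Ythdf3 rose by 0.30 (SE 0.077, adjusted p = 0.0280 in limma) and Ythdc1 changed by -0.19 (SE 0.055, adjusted p = 0.0402 in limma). Igf2bp3 was called in all 14 alternative settings of the comparison with control and in all 17 of this one, with changes from 0.59 to 0.80 over the 2 sets. The calls of Ythdf3 and Ythdc1 in this fit were both lost without control P16 library 1, control P16 library 2, or cKO P16 library 1, 2 or 3, with changes of 0.20 to 0.34 for Ythdf3 and -0.20 to -0.16 for Ythdc1. Both were also lost without a filter, in eBayes without trend and with the replicate number as a block. That of Ythdc1 was further lost without Cre control P16 library 3, at an adjusted p of 0.0564 in limma.

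**Figure D3:**
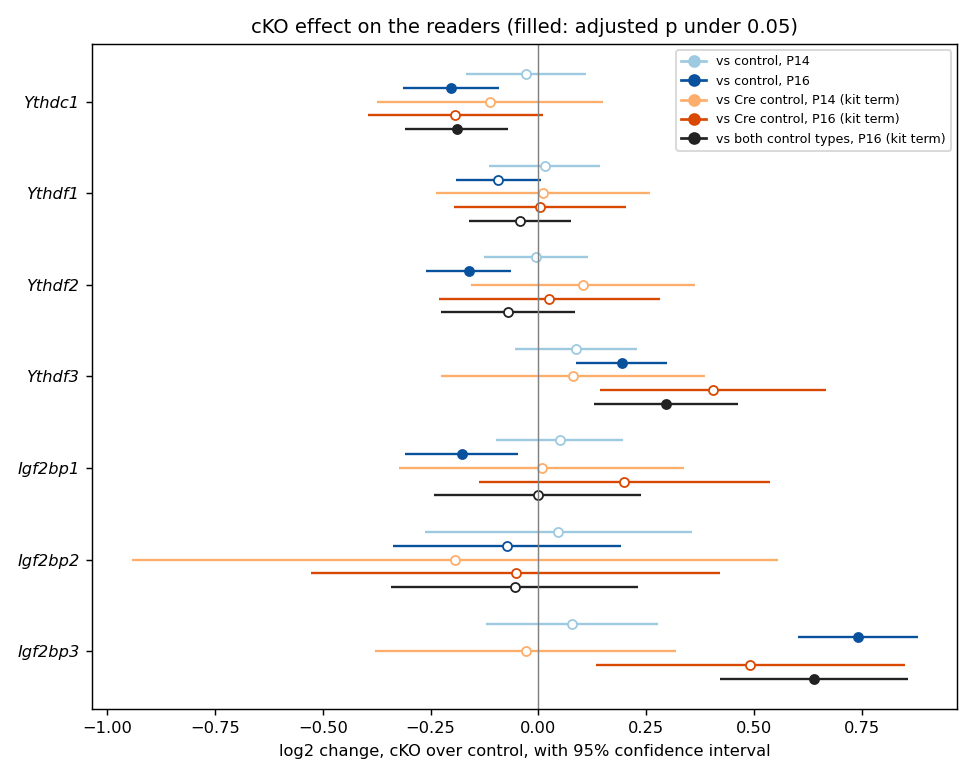
Log2 change of each reader in cKO over control (horizontal axis) with its 95% confidence interval, in 5 comparisons, with filled points for an adjusted p under 0.05. At P16 the Igf2bp3 points lie at 0.74, 0.64 and 0.49, while the P14 points of all readers have intervals that include 0.

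At P14, 2 days before, no reader was called against control, where 0.00579% of genes (1 of 17270, Ythdc2) were called by limma and 410 had an unadjusted p under 0.05. For Igf2bp3 the P14 controls held 557 and 604, and cKO libraries 1 and 2 held 596 and 628, with overlap. Its change was 0.08, with an interval from -0.12 to 0.28. The 7 changes ranged from -0.03 to 0.09. The one farthest from 0 was that of Ythdf3, at 0.09 (SE 0.059), whose values were 2209 and 2347 in the controls and 2477 and 2360.3 in the cKO libraries. Against the P14 Cre controls, 0 of the 7 readers and 0 of 18196 genes were called by limma, 447 of the genes having an unadjusted p under 0.05. DESeq2 and edgeR called 8 genes and 1 gene in that comparison. Igf2bp3 there stood at 487 and 491 in the Cre controls and at 479 in cKO library 3. In the P14 fit over both control types 0 of the 7 readers were called, beside 0.00536% of all genes.

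An interaction term in the 8 first-kit libraries tested the stages against each other for the size of the cKO effect. Igf2bp3 was the only reader called, with an effect at P16 that exceeded that at P14 by 0.67 on the log2 scale (SE 0.11, adjusted p = 0.00826 in limma). The share of all genes called was 8.45%. Without control P16 library 2 the difference was 0.63, with an adjusted p of 0.0548 in limma, and in eBayes without trend the adjusted p was 0.0662. The other 6 readers had interaction values between -0.23 and 0.11 and were not called.

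The stages were also compared within each group. From P14 to P16, Igf2bp3 rose in the controls from 23.1 and 25.1 CPM to 30.1 and 31.9 CPM, a log2 change of 0.37 (SE 0.075, adjusted p = 0.00699 in limma). It was the only reader called there, where 20.9% of all genes were called. The change was 0.32 without control P14 library 1 and 0.34 without control P16 library 1, and neither was called (adjusted p = 0.0561 and 0.0711 in limma). In cKO libraries 1 and 2 Igf2bp3 rose from 24.5 and 26.7 CPM to 49.5 and 53.9 CPM, a log2 change of 1.04 (SE 0.075, adjusted p = 3.45e-05 in limma).

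The other readers called between the stages in the cKO libraries were all lower at P16. Igf2bp1 went from 55.6 and 56.8 CPM to 42.1 and 44.5 CPM, with a change of -0.35 (adjusted p = 0.00197 in limma). Ythdf1, Ythdf2 and Ythdc1 changed by -0.16, -0.15 and -0.16 (adjusted p = 0.0248, 0.0269 and 0.0472 in limma). In all, 5 of 7 readers were called, 1 higher and 4 lower, beside 31.5% of all genes, 16.3% higher and 15.2% lower. The calls of Ythdf2 and Ythdc1 were lost without cKO P14 library 2, and that of Ythdf1 without cKO P14 library 1, with changes of -0.13, -0.13 and -0.12. All 3 were lost without cKO P16 library 1 or 2.

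In the Cre controls, Igf2bp1 was the only reader called from P14 to P16. It went from 85.0 and 96.4 CPM at P14 to between 54.8 and 73.4 CPM in the 4 libraries at P16, with no overlap. The change was -0.55 (SE 0.13, adjusted p = 0.0188 in limma), where 11.6% of all genes were called. Without Cre control P14 library 1 it was -0.45 and without Cre control P16 library 3 it was -0.54, and neither was called (adjusted p = 0.160 and 0.0580 in limma). Igf2bp3 in the Cre controls changed by 0.28, with an interval from -0.02 to 0.58.

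Levels were compared between genes per exon length, as reads scaled to exon length and library size (RPKM). In the P16 controls the order was Ythdf1 at 33.7 ± 0.554, Ythdf2 at 27.9 ± 0.691, Ythdf3 at 17.6 ± 0.752, Ythdc1 at 8.55 ± 0.304, Igf2bp1 at 5.08 ± 0.259, Igf2bp3 at 3.80 ± 0.158 and Igf2bp2 at 0.942 ± 0.0482 (mean ± SD, n = 2). No neighbours in that order overlapped in their range over the 2 libraries. The order depends on which length is used: with the longest transcript, only 3 of the 7 readers kept their rank. Ythdc1 then stood at 18.5 beside Ythdf3 at 18.4, and Igf2bp3 at 7.14 was above Igf2bp1 at 5.87.

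In the P16 cKO libraries of the first kit, Igf2bp3 at 6.33 ± 0.384 RPKM exceeded Igf2bp1 at 4.47 ± 0.175 (mean ± SD, n = 2), the reverse of the controls. In cKO library 3 Igf2bp1 remained higher, at 7.36 RPKM beside 5.67 for Igf2bp3, so by exon length this order was not the same in both kits. With the longest transcript, Igf2bp3 was above Igf2bp1 in the P16 controls and in cKO library 3 (10.6 and 8.51). Neither the first-kit reversal nor the kit difference among cKO libraries was then seen. The P16 Cre controls were split, with close means (7.47 and 7.32). Igf2bp3 was above Igf2bp1 in libraries 1 and 3 and below it in libraries 2 (6.55 and 6.99) and 4 (6.93 and 8.76). Levels also differed between first-kit and second-kit libraries, where kit and sequencing run cannot be told apart. Ythdf1 ranged from 31.2 to 36.3 RPKM in the first-kit libraries and from 47.2 to 55.9 in the second. Ythdc1 ranged from 7.14 to 8.84 and from 5.40 to 6.52. The same gaps were present within the cKO group: Ythdf1 stood at 31.2 to 36.3 RPKM in cKO libraries 1 and 2 of both stages and at 55.9 and 50.5 in library 3, and Ythdc1 at 7.14 to 8.84 and at 6.04 and 5.40. The RPKM plot shows the gaps for each reader.

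**Figure D4:**
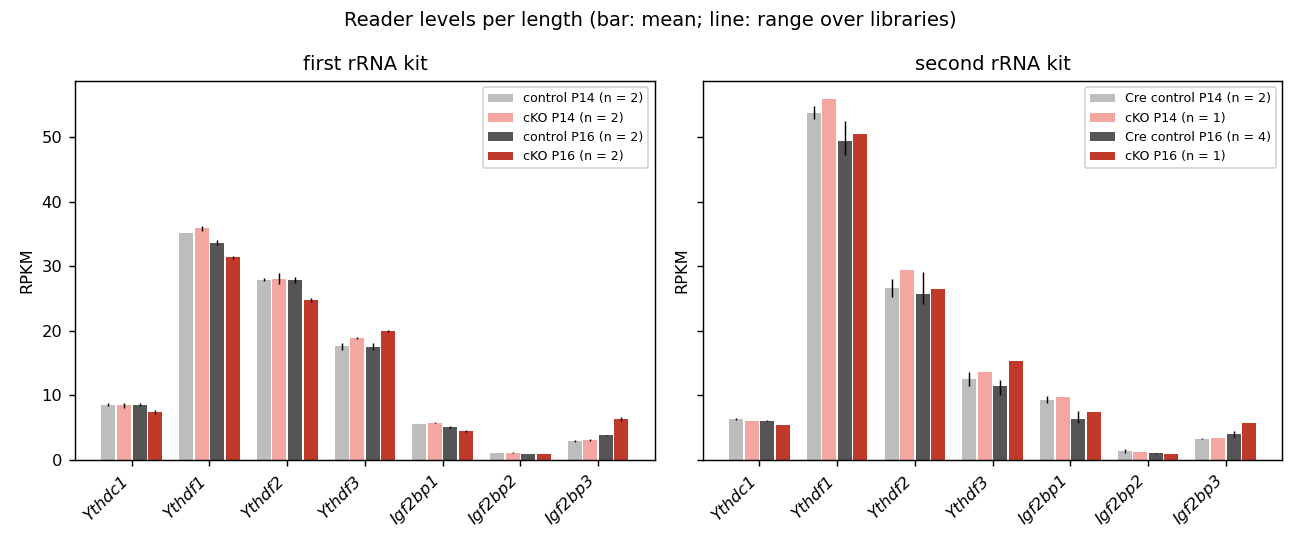
RPKM (linear axis from 0) of the 7 readers by group, with bars for means, lines for the range over libraries, and the first rRNA kit left and the second right. Igf2bp3 rises to 6.33 in the first-kit P16 cKO libraries from 3.80 in their controls, and Ythdf1 is the highest reader in every group.

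The promoter of Igf2bp3, the reader with the largest change, is shown as it stands in RefSeq for GRCm38.p6, on the minus strand at chr6:49214905-49215204. It holds 250 bases before and 50 after the annotated start, 5′ to 3′, with the E-box CACGTG, a palindrome read the same on both strands, in capitals.
Igf2bp3 promoter: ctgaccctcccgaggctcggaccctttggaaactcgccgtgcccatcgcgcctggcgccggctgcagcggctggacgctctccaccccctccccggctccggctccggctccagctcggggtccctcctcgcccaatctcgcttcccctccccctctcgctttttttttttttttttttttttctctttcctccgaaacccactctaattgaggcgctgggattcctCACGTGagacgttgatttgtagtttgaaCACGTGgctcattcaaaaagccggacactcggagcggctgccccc

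The sequence holds 2 E-boxes, which lie around the start site. RefSeq promoters matched 5 of the 7 readers: Ythdc1, Ythdf1, Ythdf2, Igf2bp2 and Igf2bp3. Of these, Ythdf1 also has an E-box, and 7.15% of the 32851 promoters in the table hold 1 or more. The half-site TGACG of the cAMP response element, searched on both strands, is found in the promoters of Ythdc1 and Ythdf1 and in 20.8% of all promoters. The MYB core CAGTTG, also searched on both strands, is in 13.7% of promoters and in 0 of the 5. The matches are letters in a window and were not tied to any change here.

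Reads of Igf2bp3 have a neighbour to consider. In GENCODE M21, Igf2bp3 shares 1529 exon bases with Malsu1, a mitochondrial ribosome assembly gene on the opposite strand. The libraries were made with a directional kit, but the strand setting used in counting is not given in the sources used here. Malsu1 moved the other way at P16, from 746 and 715 in the controls to 574 and 576 in cKO libraries 1 and 2 (log2 change -0.34, adjusted p = 0.00173 in limma). Ythdc1 shares 631 bases with the lincRNA gene Gm43055 on the same strand, and Igf2bp1 shares 43 with Gm29202 on the opposite strand and 92 with Mir3063 on the same strand. How the reads were split between these genes was not tested.

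The genes whose profiles over the 8 first-kit libraries were most like those of the called readers were found among 11462 protein-coding genes of at least 5 CPM, by the root-mean-square difference of centred log2 CPM. For Igf2bp3 they were Ttn (0.0846) and Abca8a (0.0853). Ythdf3 was nearest to Flii (0.0181) and Phc3 (0.0278). The others were Zfp568 (0.0178) and Timm29 (0.0204) for Ythdc1, Poldip3 (0.0136) and Nr1d2 (0.0151) for Ythdf2, and Vbp1 (0.0213) and Ppp1ca (0.0313) for Igf2bp1. The nearest profile to Igf2bp3 was thus farther off than the nearest to any of the other 4. The difference is not scaled to the size of a gene's changes, and Igf2bp3 changed most among them. The larger distance therefore does not show an unusual profile.

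The rest of the m6A pathway was described by 4 lists, with counts in the P16 comparison with control. Of 11 writers and erasers, 2 were called higher and 5 lower. The ubiquitin ligase Cbll1 (0.34) and the adaptor Rbm15b (0.19) rose, whereas the methyltransferase subunit Mettl14 (-0.43) and the demethylase Alkbh5 (-0.41) fell. The median log2 change of the list was -0.10, and Mettl3, the catalytic subunit, was not called (-0.10). Over both control types 0 were called higher and 1 lower, which was Alkbh5 (-0.29, adjusted p = 0.0177 in limma).

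Of 11 other proteins proposed to bind m6A, 3 were called higher and 5 lower, with a median of -0.10. The splicing factor Rbmx (0.31) and the stress granule protein G3bp1 (0.23) rose. Fmr1, the fragile X protein that represses translation (-0.50), and Prrc2a (-0.18) fell. Over both control types 1 was called higher and 2 lower.

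Of 9 effector partners of the YTH readers, 1 was called higher and 3 lower, with a median of -0.09. The polyadenylation factor Cpsf6 changed by 0.14. Pop1, a subunit of RNase P and MRP used in YTHDF2-directed cleavage, changed by -0.29, and the RNA helicase Upf1 by -0.19. Cnot1, the CCR4-NOT scaffold that YTHDF2 binds, was not called (0.02). Over both control types 0 were called higher and 1 lower.

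Of 7 genes linked to the IGF2BP proteins, 6 were tested, since Hmga2 did not pass the filter. Cd44 (0.71) and Actb (0.21), classical IGF2BP target RNAs, were higher, and Lin28b (-0.49) and H19 (-0.35) were lower. Igf2, the transcript for which the family is named, changed by -0.61 but was not called (adjusted p = 0.162 in limma). The median was -0.07. Over both control types 1 was called higher and 1 lower, and against Cre control 0 genes of any of the 4 lists were called. The lists were chosen with earlier results of these data known, and their counts were not tested against the 38.6% called over all genes.

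Marker genes of testis cell types moved in the same libraries as the readers. In the P16 comparison with control, 7 of 8 spermatogonial markers and 7 of 8 early prophase markers were called lower, with 0 higher in either list. Over all genes tested there, 18.6% were called higher and 19.9% lower. Their summed CPM was 563 to 568 in controls and 409 to 417 in cKO libraries for spermatogonia, and 619 to 621 and 446 to 474 for early prophase. Of the pachytene and later markers, 4 of 8 were called higher and 1 lower, with sums of 1200.4 to 1219.9 and 1306 to 1438 CPM. Somatic markers were called higher only. These were 5 of 10 for Sertoli cells (3897 to 4141 against 4628 to 5116 CPM) and 5 of 5 for macrophages (95.1 to 100.0 against 128 to 131 CPM). They were 2 of 5 tested for Leydig cells, 1 of 5 for peritubular myoid cells and 2 of 3 for endothelium. Over both control types at P16, 5 of 8 early prophase markers were called lower. Called higher were 2 of 10 Sertoli and 3 of 5 macrophage markers. Of the spermatogonial, pachytene, Leydig, myoid and endothelial markers 0 were called. Of all genes tested in that fit, 6.36% were called higher and 7.8% lower.

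In the second kit, where Igf2bp3 was also higher in the P16 cKO library, spermatogonial markers summed to 616 CPM in that library, within the Cre control range of 487 to 640.0. Early prophase markers summed to 405 CPM, within the range of 388 to 538. Sertoli markers summed to 6312 CPM, above the 4907 to 6053 of the Cre controls, and macrophage markers to 135 CPM, above the 93.7 to 119.7. At P14, where no reader was called, the first-kit sums overlapped between cKO and control for Sertoli, macrophage and early prophase markers. Those of spermatogonial markers did not, at 635 to 653 CPM in controls and 617 to 634 CPM in cKO libraries. The part of cell composition in the change of any reader was not tested.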

How the data were processed

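The deposited values are a signal, which the authors made by dividing each gene's read counts by a size factor for the library within each of 4 tables; the submitters' processing notes name Trim Galore, STAR, HTSeq, DESeq2 and GRCm39. Their versions and the strand setting are not given in the sources used here. Whole reads were recovered in 20 of 20 columns (100% of values whole, tolerance 0.01), and 0 columns were unmatched. The 4 summary rows of the aligner, 53.4% to 63.0% of reads, were left out. Symbols came from GENCODE M21 (GRCm38), with 52081 of 55414 identifiers matched; no coordinates of the files' build are given.

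Each table was fitted with limma 3.58.1 in R 4.3.3 (eBayes with trend) on log2(value + 1), over genes of at least 10 in at least 2 libraries, which understates changes of low genes. The kit was a term in tables with Cre controls. Fits across tables used log2 CPM of the recovered reads (TMM in edgeR 4.0.16, prior count 1, CPM of at least 0.5 in at least 2 libraries). On simulated counts the fits were tested first. Alternatives included edgeR and DESeq2 1.42.0 count tests on the recovered reads, pseudocounts of 0.1 and 10, other filters and scalings, and each library left out. The test of the cKO effect between kits and the sequencing run as a further term were added after seeing the data. Named are the 7 readers, Ythdc2, up to 2 genes called each way per pathway list with the largest change, and the 2 nearest profiles of each called reader. Mettl3, Cnot1, Igf2 and genes that overlap readers were named beyond that rule, after their values were seen. The members and lists were chosen with earlier results of these data known.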

Additional observations from a re-analysis of the deposited data

Results flagged for a closer look

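The effect of the knockout on Igf2bp3 differed between the stages by a test of the difference itself: the log2 change of cKO over control was larger at P16 than at P14 by 0.67 (SE 0.11, adjusted p = 0.00826 in limma, 8 first-kit libraries). In the same scale Igf2bp3 stood at 23.1 to 26.7 CPM in the 4 P14 libraries, at 30.1 and 31.9 CPM in the P16 controls and at 49.5 and 53.9 CPM in the P16 cKO libraries. Among the 4 Cre control libraries at P16, the gap of the farthest library as a share of the group's range was 0.743 for Ythdf2 (library 1) and 0.736 for Igf2bp1 (library 4), and less for the other readers, below Dixon's 95% critical value for 4 samples.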

How the results depend on the processing

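Of 209 alternative values for readers that were called, 154 kept their direction and their call, 55 kept the direction without the call, and 0 changed sign. Readers called in the P16 comparison with control fell from 5 to 1 in eBayes without trend, and numbered 2 to 5 with single libraries left out (2 without control P16 library 1 and 2 without library 2). Over both control types at P16 they fell from 3 to 1 without a filter, in eBayes without trend, and with a replicate block, and were 1 to 3 with libraries left out. The stage difference of Igf2bp3 fell from 1 call to 0 in eBayes without trend, and 0 to 1 with libraries left out. Between stages, the controls gave 0 to 1 with libraries left out. The cKO libraries gave 2 in eBayes without trend, 2 with DESeq2, and 2 to 4 with libraries left out. The Cre controls gave 0 without a filter, 0 in eBayes without trend, and 0 to 1 with libraries left out. Leaving out the kit term raised calls against Cre control at P16 from 0 to 2. The causes were not tested. Whether replicate numbers pair the samples was not settled. The correlation of deviations was 0.203 at P14 and 0.0798 at P16, and 2 pairs each are too few to decide it. A replicate block moved all genes called against control from 6939 to 8200 at P16 and from 1 to 5 at P14. With the replicate block, 5 readers were called against control at P16 and 0 at P14. The replicate block in place of the kit term called 4 readers against Cre control at P14, with log2 changes of 0.51 for Ythdc1, -0.49 for Ythdf1 and -0.60 for Igf2bp1 turned in sign; that fit holds no kit term. Only 3 of 7 ranks by RPKM held with the longest transcript. All genes called numbered 1806 to 8200 (from 6939) against control at P16, 683 to 3525 (from 2738) over both control types, 0 to 1741 (from 1) and 0 to 6966 (from 0) against Cre control at P16 and P14, 0 to 11 (from 1) against control at P14, 0 to 3 (from 1) over both types at P14, 184 to 3160 (from 1491) for the stage difference, 0 to 138 (from 5) for the kit difference, and 1668 to 3804 (from 3691), 3486 to 5636 (from 5559) and 49 to 2771 (from 2228) between stages in control, cKO and Cre control. Fits without the third cKO library could not be made for the Cre control comparisons or the kit difference. Igf2bp2, with 107 to 235 reads a library, is the reader that depth limits most.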
